A study of Mus musculus with 16 samples.

Results

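Cytoplasmic ribosomal protein genes encode the proteins of the large and the small subunit of the ribosome that translates nuclear mRNAs. They were chosen by name: protein-coding genes whose symbol in GENCODE M21, the mouse gene catalogue used for names here, starts with Rpl or Rps and a digit or is Rplp0, Rplp1, Rplp2 or Rpsa, without the S6 kinases, and with at least 1 CPM in at least 4 libraries. CPM is a gene's count divided by the library's total count on genes and scaled by 1e6. Of 54838 gene identifiers in the count tables, 92 had such a name, and 84 of these reached the level, 51 with a large subunit name and 33 with a small subunit name. Of the 84, 77 are the standard ribosomal proteins, and the other 7 are Rpl7l1, Rpl22l1, Rpl36al, Rpl39l, Rps27l, the retrocopy Rpl9-ps6, and Rps19bp1, which encodes a protein that binds Rps19 and is no part of a subunit. The 8 genes under the level held between 0 counts over all libraries, for Rpl10l, and a highest value of 0.935 CPM, for Rpl10-ps3.

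RNA was sequenced from macrophages grown out of mouse bone marrow, 16 libraries in 4 groups of 4 replicates. All cells carried the genotype B6.129P2-Apoetm1Unc/J, a disrupted apolipoprotein E gene, with the strain given as C57BL/6J, so no wild-type cells were compared. They were grown in medium with 15% L929-cell-conditioned medium, replated on day 7, kept without that supplement for 24 h and then treated in serum-free medium. The groups were DMSO, the solvent control; TNFα, an inflammatory cytokine, at 50 ng/ml for 24 h; TMP195+TNFα, with 5 µM of TMP195, an inhibitor of class IIa histone deacetylases, from 1 h before the cytokine; and TPCA-1+TNFα, with 500 nM of TPCA-1, an inhibitor of the kinase IKK2, likewise from 1 h before. The labels do not say whether the TNFα cells also received DMSO, or whether the replicates came from separate mice, so the p-values given here rest on differences among libraries that may be technical repeats. Libraries are named by group and replicate number, such as DMSO 1.

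A ribosome is built in the nucleolus from ribosomal RNA and one copy of nearly every ribosomal protein, and the proteins of both subunits are made in matching amounts. Their mRNAs are among the most abundant in a growing cell and begin with a terminal oligopyrimidine tract, a cytosine followed by a run of cytosines and uracils. Through this tract the kinase mTORC1 and the RNA-binding protein LARP1 control how well the mRNAs are translated and kept, so an mRNA level is only one of the quantities that set the output of protein.

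Start-site windows are shown because this tract is what the genes of both subunits share in their mRNAs. Of the 84 genes, 63 were matched by symbol to the RefSeq table of windows around annotated starts (build GRCm38.p6). The lines below hold 30 DNA bases of the coding strand, 15 before the annotated first base and 15 from it on, for 8 genes whose levels are described further on. The starts are those of RefSeq transcripts, and for some of these genes, Rpl18, Rpl12 and Rpl14 among them, the annotated gene of the count tables begins further upstream. Capitals mark a stretch that begins with a C followed by at least 4 C or T, at or within 5 bases of the annotated start. Where several C qualify, the nearest to the start was taken. Any C or T just before it is not marked, so the full run of C and T can begin further upstream.
Rps27, chr3:90213634-90213663, minus strand: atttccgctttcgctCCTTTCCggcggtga
Rps21, chr2:180257364-180257393, plus strand: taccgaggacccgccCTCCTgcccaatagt
Rpl14, chr9:120571502-120571531, plus strand: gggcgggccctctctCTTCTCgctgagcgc
Rps6, chr4:86857353-86857382, minus strand: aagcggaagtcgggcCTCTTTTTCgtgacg
Rpl27a, chr7:109519180-109519209, plus strand: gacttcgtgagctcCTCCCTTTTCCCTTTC
Rpl18, chr7:45718056-45718085, plus strand: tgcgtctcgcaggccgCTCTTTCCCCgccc
Rpl12, chr2:32961697-32961726, plus strand: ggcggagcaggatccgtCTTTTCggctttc
Rplp0, chr5:115559452-115559481, plus strand: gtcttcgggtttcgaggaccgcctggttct
In Rps27, Rps21, Rpl14 and Rps6 the marked stretch starts at the annotated first base, in Rpl27a 1 base before it. In Rpl18 it starts 1 base and in Rpl12 2 bases after the annotated first base. Rplp0 had no such stretch in this window, and neither did a second RefSeq window of Rps21. The 8 genes do not stand for the 63. All but Rplp0 have a marked stretch, while Rps12, Rps19 and Rpsa, also described further on, have none in their windows. A C followed by at least 4 C or T at the annotated first base was present in 13 of 63 genes (20.6%) and in 3.01% of the 27025 genes of the table. With a shift of up to 5 bases allowed, the shares were 46.0% and 21.2%. The share at the first base was 18.4% for the 38 large and 24.0% for the 25 small subunit genes. Of 2 further motifs looked for in both strands of the full 300-base windows, after the windows had been seen, CCGGAAG, a form of the site of ETS factors, was in 41.3% of the 63 genes and 9.93% of all genes. AAGATGGC, a form of the site of YY1, was in 9.52% and 3.19%. These are matches of letters and describe the windows only.

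The libraries held 18562773 to 31596572 counts on genes, except TPCA-1+TNFα 2, with 7489066. In that library 44.0% of reads were unmapped, against 4.0% to 7.1% in the others, and mitochondrially encoded genes took 2.91% of counts, against 3.59% to 6.19%. The main results that rest on this group are therefore given with and without it. Reads that mapped to several places, which the counts leave out, were 11.1% to 12.6% of mapped reads in all 16 libraries. All 11 macrophage markers were at 1 CPM or more in every group, and their sum per library was 18996 to 28980 CPM in DMSO, 18720.0 to 26768 in TNFα, 13858 to 18546 in TMP195+TNFα and 14874 to 21919 in TPCA-1+TNFα. Of 6 stromal and endothelial markers only Pecam1 reached 1 CPM, Col3a1 was at 0 in every group, and the sum was 15.2 to 39.5 CPM in TPCA-1+TNFα against 3.61 to 10.7 elsewhere. Of 5 erythroid and megakaryocyte markers only Pf4 did, Hbb-bs was at 0 in every group, and the sum was 477 to 1052 CPM in TPCA-1+TNFα against 1159 to 1762 elsewhere. Of 6 neutrophil markers Csf3r and S100a8 did, Ly6g, Elane and S100a9 were at 0, and the sum was 127 to 157 CPM in TNFα against 40.6 to 115 elsewhere. Of 7 lymphocyte markers only Ighm did, and the sum was 37.6 to 75.6 CPM in DMSO, 14.9 to 31.9 in TNFα, 7.15 to 12.0 in TMP195+TNFα and 26.5 to 62.3 in TPCA-1+TNFα. Dendritic cell markers summed to at most 2.00 CPM and mast cell markers, with Fcer1a at 0, to at most 0.381 CPM. In bulk RNA, fewer cells of a type and less RNA per cell cannot be told apart, and the part of these marker shifts in the values below was not tested.

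The 84 genes took a larger share of counts in TPCA-1+TNFα than in the other groups. Their summed share was 4.21%, 4.47%, 4.70% and 4.40% in DMSO 1 to 4 and 4.19%, 4.34%, 4.53% and 4.38% in TNFα. It was 3.98%, 4.40%, 4.25% and 4.35% in TMP195+TNFα and 5.04%, 5.97%, 4.73% and 5.05% in TPCA-1+TNFα. All 4 TPCA-1+TNFα libraries lay above the 12 others, although the lowest of them, at 4.73%, was close to DMSO 3, at 4.70%. The group means were 4.44% ± 0.205 (SD, n = 4) in DMSO, 4.36% ± 0.139 in TNFα, 4.25% ± 0.189 in TMP195+TNFα and 5.20% ± 0.538 in TPCA-1+TNFα, or 4.94% ± 0.183 (SD, n = 3) without replicate 2. The first 3 groups overlapped and differed by about the spread between their replicates.

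Both subunits had their highest mean in TPCA-1+TNFα. Large subunit genes took 2.34% ± 0.0959 of counts in DMSO, 2.32% ± 0.118 in TNFα, 2.28% ± 0.119 in TMP195+TNFα and 2.78% ± 0.291 in TPCA-1+TNFα (SD, n = 4), or 2.63% ± 0.0787 without replicate 2. Small subunit genes took 2.11% ± 0.130, 2.04% ± 0.0715, 1.97% ± 0.0857 and 2.42% ± 0.258 in the same order, or 2.30% ± 0.137 without replicate 2. The large subunit libraries of TPCA-1+TNFα, 2.57% to 3.20%, lay above all 12 others, whereas the small subunit libraries, 2.16% to 2.77%, overlapped with DMSO, which reached 2.28%. The 10 most abundant genes held 31.3% of the counts on the 84. Without these 10 the share was 3.05% ± 0.150 in DMSO, 3.01% ± 0.102 in TNFα, 2.95% ± 0.146 in TMP195+TNFα and 3.53% ± 0.319 in TPCA-1+TNFα, or 3.38% ± 0.115 without replicate 2.

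**Figure D1:**
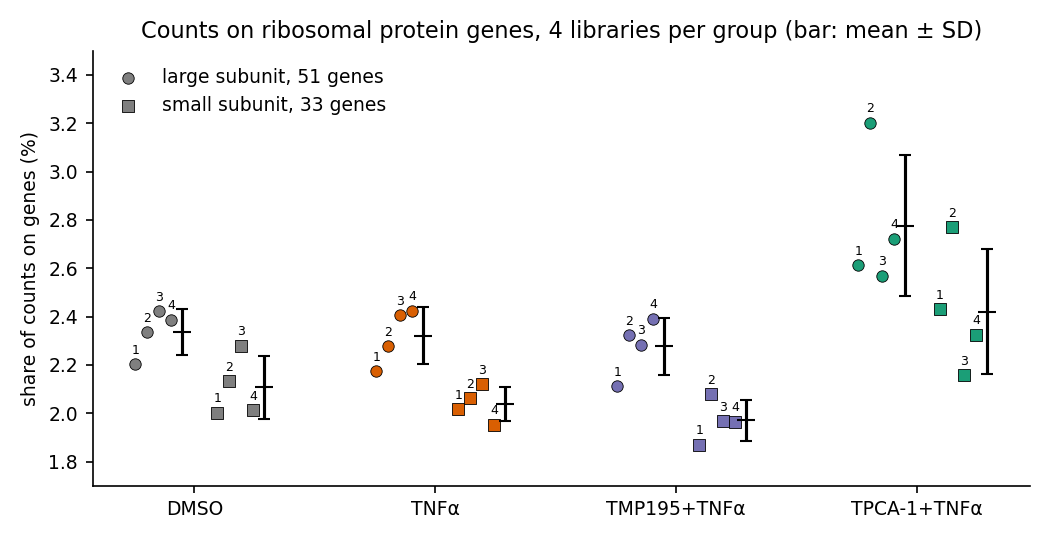
Share of each library's counts on genes, in percent (vertical axis, not starting at 0), held by the 51 large subunit genes (circles) and the 33 small subunit genes (squares) in the 4 groups; numbers are replicates and bars are the mean ± SD of 4 libraries. TPCA-1+TNFα 2 is the highest library for both subunits, at 3.20% and 2.77%. The other TPCA-1+TNFα libraries lie above all others for the large subunit and overlap with DMSO for the small subunit.

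The means of the ratio of large to small subunit lay further apart between replicate numbers than between groups. The ratio of summed large to small subunit counts was 1.11 ± 0.0523 in DMSO, 1.14 ± 0.0721 in TNFα, 1.16 ± 0.0445 in TMP195+TNFα and 1.15 ± 0.0509 in TPCA-1+TNFα (SD, n = 4), or 1.15 ± 0.0620 without replicate 2. The 4 groups overlapped, and their means lay within the spread of the replicates. Taken by number over the 4 groups, it was 1.10 ± 0.0252 for number 1, 1.12 ± 0.0271 for 2, 1.14 ± 0.0547 for 3 and 1.20 ± 0.0317 for 4. Number 4 was the highest of its group in DMSO (1.19), TNFα (1.24) and TMP195+TNFα (1.22), but not in TPCA-1+TNFα, where it was 1.17 and number 3 was 1.19. Replicate numbers have no order, and what they share is not given in the labels.

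**Figure D2:**
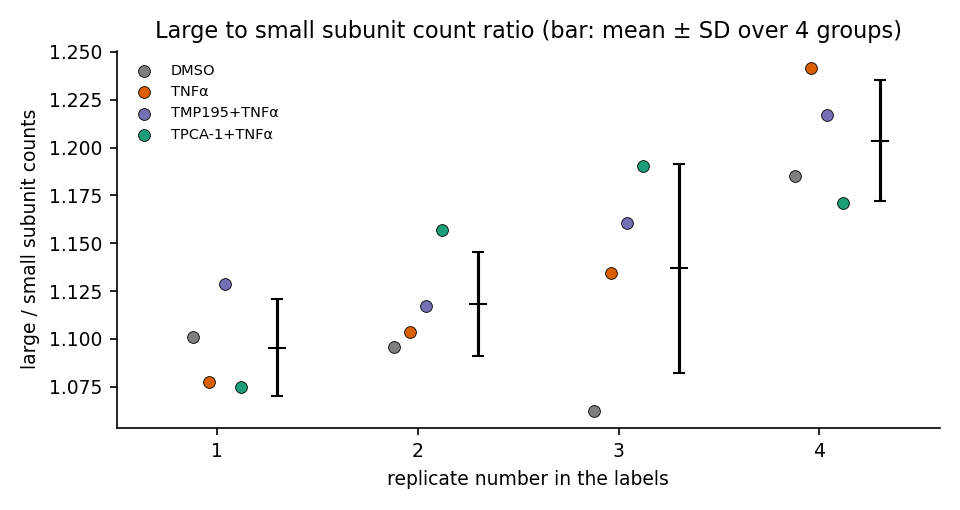
Ratio of summed large to small subunit counts per library (vertical axis, not starting at 0) by replicate number, with groups by colour and the mean ± SD over the 4 groups as a bar. Number 4 lies between 1.17 and 1.24, and the 4 groups are mixed within each number.

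Levels per length differed widely among the 84 genes. Per kilobase of the principal transcript, averaged over the 16 libraries, Rps29 stood highest at 4074 CPM per kb, followed by Rps12 at 3838, Rps28 at 3639, Rpl41 at 3293 and Rps24 at 2678. The first 4 had the same rank in all 4 groups. All of these encode short proteins, Rpl41 the shortest of the ribosome. The median was 538 CPM per kb for the large and 724 for the small subunit. The lowest were Rpl24 at 1.16, Rps10 at 1.81, Rpl9-ps6 at 2.11, Rpl36al at 2.21 and Rpl39l at 2.99 CPM per kb. Of the 84 genes 74 had a mean over 100 CPM.

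Some of the genes with low values lie under exons of another gene. The count tables leave out reads that fall on exons of more than 1 gene on a strand, which were 1.86% to 2.21% of uniquely mapped reads. Exons of another gene on the same strand covered 91.6% of the Rps10 transcript (the readthrough gene RPS10-NUDT3), 71.5% of Rpl24 (Gm28037), 63.1% of Rpl36al (Gm49383) and 59.3% of Rpl13a (Gm45713). Those 4 overlapping genes had 0 counts, and the 4 ribosomal protein genes averaged 0.899, 0.786, 1.16 and 11.2 CPM, so their values are uncertain as levels. Most of the 84 genes share sequence with other annotated genes, many of them processed copies: in the median gene 61.4% of the transcript's stretches of 50 bases also occurred in another gene, and 3 genes, Rpl39l and Rps19bp1 among them, had none. Reads that fit several places are left out of the counts, so levels of different genes are compared only with this limit. Annotated ribosomal protein pseudogenes took 0.0125% to 0.0164% of counts, and 0.0241% in TPCA-1+TNFα 2.

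With TNFα alone, 1 of the 84 genes rose against DMSO and 0 fell, by edgeR's quasi-likelihood test at an adjusted p under 0.05. Of all 12612 genes tested, 10.9% rose and 12.4% fell. At an unadjusted p under 0.05 there were 2 higher and 1 lower. The share of all genes at that unadjusted threshold was not counted, here or in the comparisons below. DESeq2 called the same numbers as edgeR, 1 and 0, where it called 9.97% and 10.3% of all genes. The gene that rose was Rps19bp1, at 16.3, 18.6, 16.1 and 16.9 CPM in DMSO 1 to 4, 20.7, 20.7, 22.3 and 22.6 in TNFα, 20.1, 24.0, 21.6 and 23.1 in TMP195+TNFα, and 25.3, 23.1, 22.6 and 24.2 in TPCA-1+TNFα. Every library with TNFα lay above the 4 DMSO libraries, whether or not an inhibitor was present. Its log2 fold change was 0.42 ± 0.09 (SE; edgeR adjusted p = 0.0022). The median log2 fold change was 0.06 for the large and 0.06 for the small subunit, against 0.00 over all genes. None of the 77 standard ribosomal proteins passed.

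The replicate numbers paired the DMSO and TNFα libraries, so the fit with the number as a block bears on this comparison. In it 2 genes rose, Rps19bp1 and Rpl18, and 1 fell, Rpl3, where 15.1% and 16.9% of all genes did. Rpl18 was at 227, 233, 254 and 294 CPM in DMSO 1 to 4, 250.4, 274, 320.2 and 364 in TNFα, 243, 272, 311 and 342 in TMP195+TNFα, and 291, 431, 347 and 335 in TPCA-1+TNFα. In each of the 4 pairs the TNFα library was higher than the DMSO library, by a log2 of 0.32 ± 0.11 (SE; blocked edgeR adjusted p = 0.034). Rpl3, which lies at the peptidyl transferase centre, was at 354, 370.2, 384 and 389.9 CPM in DMSO 1 to 4, 258, 321, 309.7 and 330.5 in TNFα, 302, 373, 364 and 352 in TMP195+TNFα, and 322, 409, 352 and 420.4 in TPCA-1+TNFα, lower with TNFα in every pair (log2 -0.24 ± 0.08, blocked edgeR adjusted p = 0.024).

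Without TPCA-1+TNFα 2, which enters the shared estimate of spread, the blocked fit called 12 genes for TNFα against DMSO. Of the 84, 9 rose and 3 fell, against 20.8% and 21.8% of all genes, so the share of ribosomal protein genes was below that of all genes in both directions. Large subunit genes that rose were Rpl18 (log2 0.32), Rpl8 (0.27), Rpl19 (0.20) and Rpl29 (0.17). Genes with small subunit names that rose were Rps19bp1 (0.42), Rps2 (0.25), Rps19 (0.18), Rps18 (0.18) and Rps6 (0.17). Rpl22l1 (-0.63), Rpl10a (-0.26) and Rpl3 (-0.23) fell, and all 3 have large subunit names. Rps6 is the protein that the S6 kinases phosphorylate, and Rps19 and Rps2 are small subunit proteins needed for its assembly.

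Adding TMP195 to TNFα moved none of the 84 genes past the threshold. With edgeR 0 rose and 0 fell, where 2.95% and 3.0% of all genes did, and 0 had an unadjusted p under 0.05. DESeq2 called 0, where it called 4.02% of all genes higher and 4.31% lower. The fit with the replicate number as a block, which the numbers allow here as well, also called 0. Of all genes 6.91% rose and 6.56% fell in that fit. The point estimates leaned one way: 9 of the 84 were positive, with a median log2 fold change of -0.09 for the large and -0.09 for the small subunit, against 0.02 over all genes. Without TPCA-1+TNFα 2 the blocked fit called 1 higher, Rpl10a (log2 0.17 ± 0.06), and 3 lower, Rplp0 (-0.20 ± 0.07), Rps9 (-0.16 ± 0.05) and Rps27l (-0.40 ± 0.13), where 11.5% of all genes rose and 11.7% fell. Rps27l, a paralog of Rps27 that p53 is known to induce, was at 222, 263, 289 and 170.4 CPM in DMSO 1 to 4, 291, 287, 253 and 172 in TNFα, 214, 252, 184 and 143 in TMP195+TNFα, and 328, 183, 196 and 223 in TPCA-1+TNFα. It was lower with TMP195 in all 4 pairs.

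Against DMSO, TMP195+TNFα had 1 gene higher and 1 lower, where 13.6% and 13.9% of all genes were. The higher one was again Rps19bp1 (log2 0.40 ± 0.09, edgeR adjusted p = 0.0026). The median was -0.03 for both subunits. Without TPCA-1+TNFα 2 and with the block, 4 rose and 8 fell, where 22.7% and 23.6% of all genes did. Of the 8 that fell 6 were small subunit genes, among them Rps21 (-0.31), Rps20 (-0.25), Rps4x (-0.23), Rps12 (-0.23) and Rps27 (-0.18).

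Adding TPCA-1 to TNFα raised 15 of the 84 genes, 8 of the large and 7 of the small subunit, and lowered 0. That is 17.9% of the genes, where 9.67% of all genes rose and 9.72% fell. At an unadjusted p under 0.05 there were 33 higher and 0 lower. DESeq2 called 18 higher (21.4%) and 0 lower, where it called 9.43% and 9.56% of all genes. The median log2 fold change was 0.19 for the large and 0.19 for the small subunit, against 0.02 over all genes, and 67 of 84 estimates were positive. In this fit the count depended on single libraries: without TPCA-1+TNFα 2 only Rps27 passed, where 7.20% of all genes rose, with 18 higher and 0 lower at an unadjusted p under 0.05. The medians were then 0.14 and 0.13. Leaving out TNFα 1 also left 1 gene (5.66% of all genes rose), and TNFα 2 left 2 (6.53%). Leaving out TNFα 3 left 5 (6.02%) and TPCA-1+TNFα 4 left 7 (6.17%). Other libraries went the other way. Without TNFα 4, 18 were higher and 1 lower, where 11.4% of all genes rose and 11.4% fell. Without TPCA-1+TNFα 1, 21 were higher, where 12.8% of all genes were.

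Rps27, a zinc finger protein of the small subunit and the gene that passed in both fits, was at 363, 382, 388 and 395 CPM in DMSO 1 to 4, 318, 334, 330.2 and 359 in TNFα, 308, 366, 324 and 344 in TMP195+TNFα, and 430.2, 556, 384 and 418 in TPCA-1+TNFα. The TPCA-1+TNFα libraries lay above all TNFα and TMP195+TNFα libraries and overlapped with DMSO. The log2 fold change against TNFα was 0.40 ± 0.10 (SE; edgeR adjusted p = 0.011), and 0.27 ± 0.08 without replicate 2 (adjusted p = 0.025).

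Rplp0 and Rplp1 belong to the stalk, through which the large subunit recruits the GTPases of translation, and were the most abundant large subunit genes among the 15. Rplp0, the base of the stalk, was at 1486, 1437, 1309 and 1755 CPM in DMSO 1 to 4, 1362, 1431, 1574 and 2009.5 in TNFα, 1384, 1270.0, 1402 and 1706 in TMP195+TNFα, and 1860.5, 2328, 2033 and 2299 in TPCA-1+TNFα. TPCA-1+TNFα lay above every DMSO and TMP195+TNFα library, while TNFα 4 reached into its range. Against TNFα the log2 fold change was 0.40 ± 0.13 (SE; edgeR adjusted p = 0.042), or 0.35 ± 0.14 (adjusted p = 0.11) without replicate 2. Rplp1, which binds to it as a dimer with Rplp2, was at 1108, 1210.0, 1095 and 1362 CPM in DMSO 1 to 4, 959, 1019, 1160.0 and 1412 in TNFα, 916, 1036, 1156 and 1142 in TMP195+TNFα, and 1337, 2588, 1412 and 1585 in TPCA-1+TNFα. Replicate 2 was far above the other 3 libraries of its group, which overlapped with DMSO 4 and TNFα 4. Its log2 fold change went from 0.59 ± 0.18 (SE; edgeR adjusted p = 0.027) to 0.32 ± 0.13 (adjusted p = 0.10) without that library. Rplp2 was at 395, 413, 498 and 564 CPM in DMSO 1 to 4, 354, 416, 498 and 498 in TNFα, 335, 431, 479 and 546 in TMP195+TNFα, and 499, 981, 591 and 535 in TPCA-1+TNFα. Here too replicate 2 stood alone, and the estimate of 0.54 ± 0.20 did not pass (edgeR adjusted p = 0.064, and 0.27 ± 0.16 with adjusted p = 0.29 without replicate 2).

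On the small subunit, Rpsa, also known as the laminin receptor precursor, was at 532, 551, 562 and 597 CPM in DMSO 1 to 4, 511, 488, 512 and 589.9 in TNFα, 471, 509.7, 507 and 598 in TMP195+TNFα, and 598, 861, 651 and 645 in TPCA-1+TNFα. TPCA-1+TNFα 1 was level with TMP195+TNFα 4, and the other TPCA-1+TNFα libraries were above all others. Its log2 fold change against TNFα was 0.37 ± 0.11 (SE; edgeR adjusted p = 0.026), or 0.24 (adjusted p = 0.088) without replicate 2. Rps21 was at 306, 321, 395 and 339.9 CPM in DMSO 1 to 4, 248, 293, 284 and 291 in TNFα, 234, 313, 257 and 285 in TMP195+TNFα, and 388, 534, 316 and 364 in TPCA-1+TNFα. The TPCA-1+TNFα libraries lay just above those of TNFα and TMP195+TNFα and within the range of DMSO apart from replicate 2 (log2 against TNFα 0.51 ± 0.14, edgeR adjusted p = 0.015, and 0.052 without replicate 2).

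Other genes that rose against TNFα had estimates between 0.34 for Rps12 and 0.51 for Rps14, with Rpl19, Rpl12, Rpl27a, Rpl37a, Rpl36, Rpl21 and Rps28 between them. Genes of the same subunits that did not pass lay on both sides of 0. The lowest were Rpl24 (-0.61 ± 0.29), Rpl7 (-0.16 ± 0.17) and Rpl5 (-0.15 ± 0.18) on the large and Rps10 (-0.24 ± 0.28), Rps3a1 (-0.17 ± 0.17) and Rps7 (-0.13 ± 0.10) on the small subunit. When TPCA-1+TNFα 2 was left out, these estimates were -0.54, -0.14, -0.00, -0.32, -0.11 and -0.04. Rpl5 and Rpl11 form a particle with 5S ribosomal RNA that can bind the p53 regulator Mdm2. Rpl11 had an estimate of 0.21 ± 0.10 (edgeR adjusted p = 0.15), or 0.17 (adjusted p = 0.29) without replicate 2.

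Against DMSO, TPCA-1+TNFα had 33 of 84 genes higher and 0 lower. Of these 19 have a large and 14 a small subunit name, Rps19bp1, which is no part of a subunit, among the latter. That is 39.3% of the genes, where 14.8% of all genes rose and 15.5% fell. At an unadjusted p under 0.05 there were 44 higher and 0 lower. DESeq2 called 39 higher (46.4%) and 0 lower, where it called 14.0% and 13.9% of all genes. The median log2 fold change was 0.25 for the large and 0.28 for the small subunit, against 0.01 over all genes. Without TPCA-1+TNFα 2, 19 were higher, 11 and 8 by subunit name, which is 22.6% where 12.1% of all genes rose. None were lower, and the medians were 0.21 and 0.17. The comparisons with TPCA-1+TNFα share its libraries, so they are not separate evidence. Leaving out DMSO 1 left 16 higher (19.0%), where 10.6% of all genes were.

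Rpl14, Rps19 and Rpl27a rose by similar amounts with and without replicate 2. Rpl14 was at 642, 696, 663 and 594 CPM in DMSO 1 to 4, 688, 767, 678 and 609 in TNFα, 631, 739, 599 and 598 in TMP195+TNFα, and 911, 832, 756 and 844 in TPCA-1+TNFα. All TPCA-1+TNFα libraries lay above all DMSO libraries, by a log2 of 0.42 ± 0.10 (SE; edgeR adjusted p = 0.0038) and 0.41 ± 0.10 (adjusted p = 0.0069) without replicate 2. Rps19, the protein most often mutated in Diamond-Blackfan anaemia, was at 305, 353, 293 and 308 CPM in DMSO 1 to 4, 341, 338, 319 and 359 in TNFα, 320.1, 338, 321 and 320.1 in TMP195+TNFα, and 438, 351, 368 and 412 in TPCA-1+TNFα. Its replicate 2 was the lowest of the group and about level with DMSO 2, and the estimate was 0.37 ± 0.09 (SE; edgeR adjusted p = 0.0044) with it and 0.41 ± 0.08 (adjusted p = 0.0018) without it. Rpl27a was at 230.3, 245, 194 and 289 CPM in DMSO 1 to 4, 226, 234, 231 and 312 in TNFα, 213, 221, 224 and 269 in TMP195+TNFα, and 307, 369, 333 and 331 in TPCA-1+TNFα, with TPCA-1+TNFα above all DMSO and TMP195+TNFα libraries. The difference was 0.53 ± 0.13 (SE; edgeR adjusted p = 0.0038), or 0.48 (adjusted p = 0.012) without replicate 2. Rps19bp1 had the smallest adjusted p, 0.00023 by edgeR, at 0.54 ± 0.09.

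Further genes higher than in DMSO were Rpl19 (0.57 ± 0.12), Rpl8 (0.60 ± 0.16) and Rpl13a (0.69 ± 0.22, a gene of 11.2 CPM known from interferon-controlled silencing of inflammatory mRNAs) of the large subunit. On the small subunit Rps14 (0.62 ± 0.17) and Rps2 (0.57 ± 0.15) did. Without replicate 2 Rpl19, Rpl8, Rps14 and Rps2 still passed, at 0.43, 0.43, 0.42 and 0.50, and Rpl13a did not (0.44, edgeR adjusted p = 0.091). Rps14 spans the platform of the small subunit and is the gene whose loss underlies the anaemia of the 5q deletion.

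Under TNFα the inhibitors differed: 31 of 84 genes were lower with TMP195 than with TPCA-1, 18 of the large and 13 of the small subunit, and 1 was higher. That is 36.9% of the genes, where 12.6% of all genes were lower and 13.1% higher. The compounds were used at different doses, 5 µM and 500 nM, and act on different enzymes. The median was -0.29 for the large and -0.31 for the small subunit, against 0.00 over all genes. Without TPCA-1+TNFα 2, 21 were lower and 0 higher, with 10.8% of all genes lower, and medians of -0.21 and -0.27. Without TMP195+TNFα 1, 19 were lower (22.6%), where 9.06% of all genes were. The smallest adjusted p was that of Rplp0, at -0.60 ± 0.13 (SE; edgeR adjusted p = 0.003) and -0.55 ± 0.14 (adjusted p = 0.0089) without replicate 2.

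Rpl36 was at 389.9, 409, 386 and 502 CPM in DMSO 1 to 4, 352, 389, 437 and 529.7 in TNFα, 357, 394, 426 and 483 in TMP195+TNFα, and 502, 722, 570.3 and 597 in TPCA-1+TNFα, with TPCA-1+TNFα above TMP195+TNFα in every library. Its difference between the inhibitors was -0.56 ± 0.14 (SE; edgeR adjusted p = 0.0062), or -0.45 (adjusted p = 0.022) without replicate 2. Rps12 was at 1829.5, 1948, 2195 and 1818 CPM in DMSO 1 to 4, 1618, 1778, 1954 and 1636 in TNFα, 1489, 1762, 1710.2 and 1614 in TMP195+TNFα, and 2202, 2796, 1946 and 2039.7 in TPCA-1+TNFα, with no overlap between the inhibitors, and differed by -0.48 ± 0.12 (SE; edgeR adjusted p = 0.0052), or -0.36 (adjusted p = 0.014). The 1 gene that was higher with TMP195 was Rpl24, which forms a bridge between the subunits. It was counted at only 22, 23, 19 and 21 reads in TMP195+TNFα and 12, 3, 12 and 13 in TPCA-1+TNFα, and most of its transcript lies under exons of another gene. The estimate was 0.85 ± 0.29 (SE; edgeR adjusted p = 0.04), DESeq2 did not call it, and it did not pass without replicate 2 (adjusted p = 0.075).

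Rps6, which the S6 kinases phosphorylate, was at 405, 434, 399.8 and 380.5 CPM in DMSO 1 to 4, 439, 449, 440.4 and 409 in TNFα, 428, 449, 422 and 407 in TMP195+TNFα, and 494, 447, 430.4 and 474 in TPCA-1+TNFα. It was higher in TPCA-1+TNFα than in DMSO by 0.24 ± 0.08 (SE; edgeR adjusted p = 0.033), and by 0.25 ± 0.08 (adjusted p = 0.031) without replicate 2. Rps3, at the mRNA entry, was at 208, 243, 296 and 265 CPM in DMSO 1 to 4, 234, 242, 289.5 and 243 in TNFα, 222, 276, 282 and 292 in TMP195+TNFα, and 274, 413, 280.4 and 356 in TPCA-1+TNFα, and rose in the same comparison by 0.43 ± 0.14 (SE; edgeR adjusted p = 0.024), but not past the threshold without replicate 2 (0.31, adjusted p = 0.093). Rps27a, made as a fusion with ubiquitin, was at 454, 520.0, 503 and 376 CPM in DMSO 1 to 4, 541, 575, 520.1 and 391 in TNFα, 532, 597, 504 and 432 in TMP195+TNFα, and 623, 424, 451 and 469 in TPCA-1+TNFα. It had an estimate of 0.14 ± 0.15 (edgeR adjusted p = 0.52), or 0.20 (adjusted p = 0.39) without replicate 2, and the groups overlapped.

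Over the 3 comparisons with TPCA-1+TNFα, 12 genes were called with that group higher in each, among them Rpl12, Rpl19, Rpl21, Rpl27a, Rpl36, Rpl37a, Rplp0 and Rplp1 of the large and Rps14, Rps27 and Rpsa of the small subunit. That is 14.3% of the 84, where 3.19% of all genes were so called. Without replicate 2 the number was 0. In at least 1 of the 3 comparisons 43 genes (51.2%) were called higher, against 24.5% of all genes, and in none 41, among them Rpl5, Rpl7, Rps3a1 and Rps7. TPCA-1+TNFα 2 was the highest of the 16 libraries for 44 of the 84 genes and the lowest for 7, and the 3 other libraries of its group were the highest for 16, 3 and 4. The same count was not made over all genes, so the 44 cannot be read as particular to ribosomal protein genes. Rps29, the gene with the highest level per length, was at 1358, 1479.8, 2082 and 1519.5 CPM in DMSO 1 to 4, 1396, 1384, 1588 and 1190.4 in TNFα, 1129, 1434, 1374 and 1386 in TMP195+TNFα, and 1838, 3098, 1486 and 1676 in TPCA-1+TNFα. Apart from replicate 2 its TPCA-1+TNFα libraries lay within the range of DMSO, and it passed only in the comparison of the inhibitors (-0.64 ± 0.19, edgeR adjusted p = 0.021, and 0.084 without replicate 2).

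**Figure D3:**
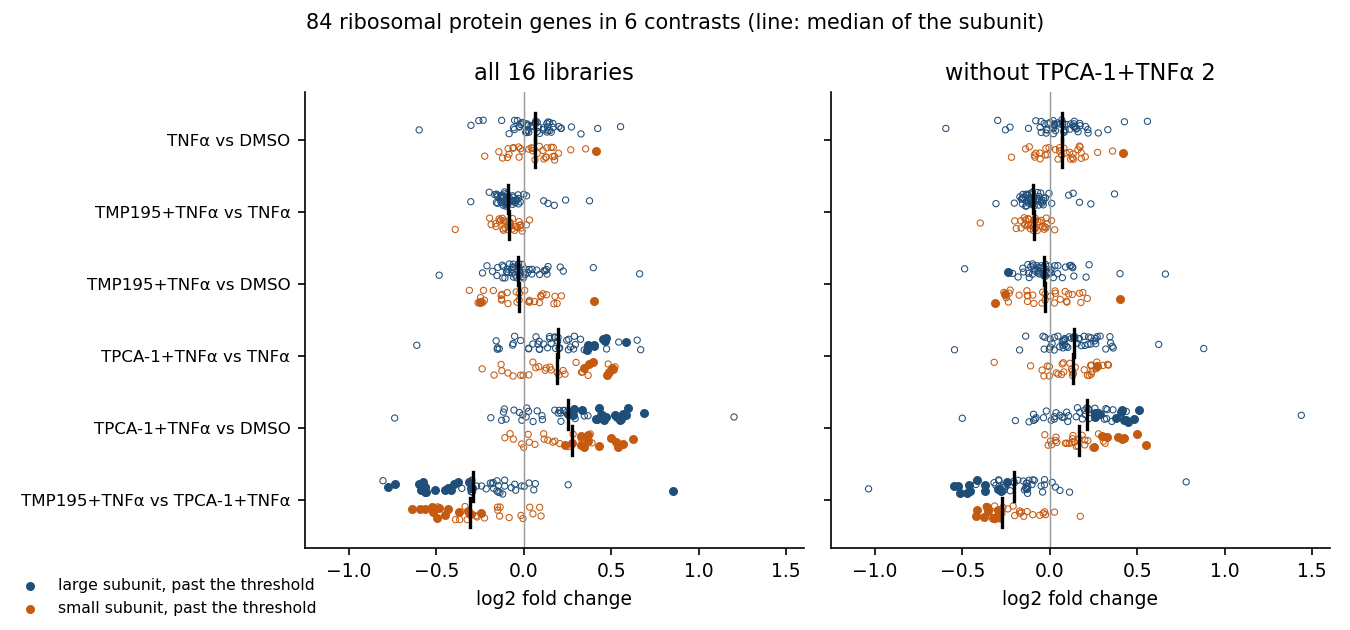
Log2 fold changes (horizontal axis) of the 84 genes in the 6 comparisons with all 16 libraries (left) and without TPCA-1+TNFα 2 (right), large subunit in blue and small subunit in orange, filled where the edgeR adjusted p was under 0.05, with the median of each subunit as a black line. The subunits have nearly the same median in every comparison, and the filled points of the TPCA-1+TNFα comparisons thin out on the right, from 15 to 1, 33 to 19 and 32 to 21.

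The medians of large and small subunit genes were close in all 6 comparisons. The median of the large minus that of the small subunit was 0.00 for TNFα against DMSO, -0.01 for TMP195+TNFα against TNFα, 0.00 for TPCA-1+TNFα against TNFα, 0.01 between the inhibitors, -0.01 for TMP195+TNFα against DMSO and -0.03 for TPCA-1+TNFα against DMSO. The last was 0.04 without TPCA-1+TNFα 2, and that between the inhibitors 0.07. For scale, the same quantity taken per library had a standard deviation within groups of 0.0584. Per library it ranged from -0.09 in TNFα 2 to 0.11 in TPCA-1+TNFα 2.

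Several members are paralogs that were counted separately. Rpl22 binds RNA and its paralog Rpl22l1 can take its place in the ribosome. Rpl22l1 was at 42.1, 40.7, 46.1 and 25.2 CPM in DMSO 1 to 4, 28.8, 31.7, 21.6 and 15.1 in TNFα, 38.3, 34.2, 23.4 and 13.1 in TMP195+TNFα, and 35.8, 8.55, 18.3 and 25.0 in TPCA-1+TNFα. In each of the first 3 groups number 4 was the lowest, and in TPCA-1+TNFα replicate 2 was. The estimate for TNFα against DMSO was -0.60 ± 0.36 (edgeR adjusted p = 0.28), and it passed only in the blocked fit without TPCA-1+TNFα 2. Rpl22 was at 175, 208, 196 and 149 CPM in DMSO 1 to 4, 184, 181, 179.5 and 143 in TNFα, 173, 195, 169 and 136 in TMP195+TNFα, and 196, 200.3, 161 and 185 in TPCA-1+TNFα. Its number 4 was the lowest library in DMSO, TNFα and TMP195+TNFα, and it passed in no comparison.

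Rpl39 lines the exit tunnel of the large subunit, and Rpl39l is its paralog, known from the testis. Rpl39l was listed at 26, 2, 1 and 57 counts in DMSO 1 to 4, 60, 4, 7 and 59 in TNFα, 52, 7, 1 and 60 in TMP195+TNFα and 86, 5, 3 and 94 in TPCA-1+TNFα. In all 4 groups numbers 1 and 4 were high and numbers 2 and 3 near 0. In CPM this was 1.38, 0.102, 0.0458 and 3.03 in DMSO, 3.23, 0.197, 0.222 and 2.82 in TNFα, 2.80, 0.340, 0.0529 and 2.62 in TMP195+TNFα, and 4.10, 0.668, 0.147 and 4.58 in TPCA-1+TNFα, where 3 counts corresponded to between 0.0949 and 0.401 CPM. Of its variance in log CPM over the 16 libraries, 89.4% lay between replicate numbers and 6.79% between groups. Rpl39, at 185, 205, 233 and 134 CPM in DMSO 1 to 4, 204, 186, 178 and 113 in TNFα, 171, 194, 163 and 119 in TMP195+TNFα, and 206, 161, 141 and 174 in TPCA-1+TNFα, was far from 0 in all 16 libraries, and its number 4, a high one for Rpl39l, was the lowest in the first 3 groups. Neither gene passed in any of the 6 comparisons with edgeR.

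**Figure D4:**
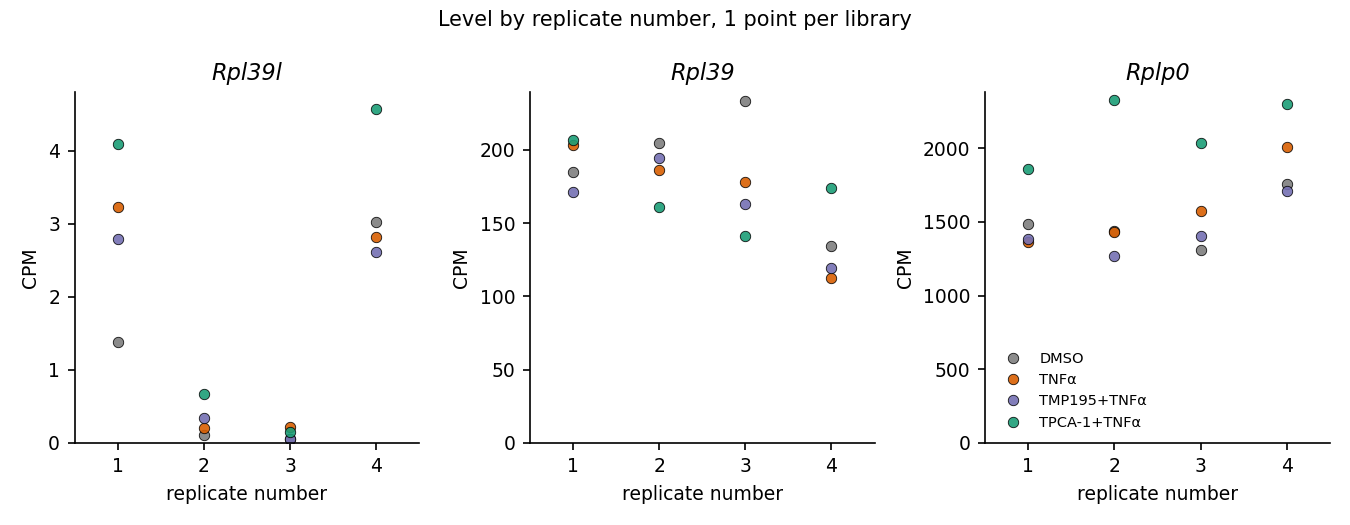
CPM of Rpl39l, Rpl39 and Rplp0 (vertical axes, from 0) by replicate number, 1 point per library coloured by group. Rpl39l is high in numbers 1 and 4 and near 0 in 2 and 3 whatever the group. Rpl39 is lowest in number 4 of the first 3 groups. For Rplp0 TPCA-1+TNFα is on top at every number, while the first 3 groups overlap and TNFα 4 reaches into its range.

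Replicate numbers held a part of the variance of the other genes as well. Over the 84 genes the median share of the variance was 47.1% between groups, 23.6% between replicate numbers and 29.1% in the rest, each a separate median. Over all genes tested these medians were 46.9%, 20.2% and 25.2%. The shares are of sums of squares and were not adjusted for what groups or numbers hold by chance. For 29 of the 84 genes (34.5%) the numbers held more than the groups, against 27.8% of all genes tested. The shares between numbers were highest, after Rpl39l, in Rpl7l1 at 75.8% and Rpl10, named here after its values were seen, at 69.6%. Rpl7l1, a paralog of Rpl7, was at 86.9, 100.4, 102 and 78.4 CPM in DMSO 1 to 4, 91.5, 99.6, 94.4 and 84.1 in TNFα, 83.4, 106, 88.2 and 77.7 in TMP195+TNFα, and 86.0, 109, 84.8 and 79.5 in TPCA-1+TNFα, highest in number 2 of every group except DMSO, where numbers 2 and 3 were close. At the other end Rps19bp1 had 89.5% between groups.

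The ratios between replicates differed with base composition. This description was chosen after the values were seen. Of the 84 genes 79 averaged at least 10 CPM, and they were put in 3 classes of 26, 26 and 27 by the GC content of the principal transcript, 39.1% to 49.5%, 49.6% to 53.6% and 53.8% to 60.8%. In DMSO the median log2 ratio of number 4 to the mean of numbers 1 to 3 was -0.34, -0.04 and 0.17 in the classes from low to high GC, and -0.18, 0.12 and 0.32 over the 3773, 1677 and 1853 genes of at least 10 CPM, these members included, whose GC content falls in the same classes. In TNFα the medians were -0.37, -0.03 and 0.22, and in TMP195+TNFα -0.24, 0.01 and 0.25. In TPCA-1+TNFα the ratio of replicate 2 to the others was -0.07, 0.16 and 0.41, where the genes of the same classes had -0.29, 0.10 and 0.31. Rpl5, of low GC content, was the lowest of the 16 libraries in TPCA-1+TNFα 2 and next in number 4 of the other groups, at 233, 243, 222 and 183 CPM in DMSO 1 to 4, 236, 240.1, 207 and 171 in TNFα, 225, 230.4, 211 and 168 in TMP195+TNFα, and 258, 127, 185 and 207 in TPCA-1+TNFα.

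**Figure D5:**
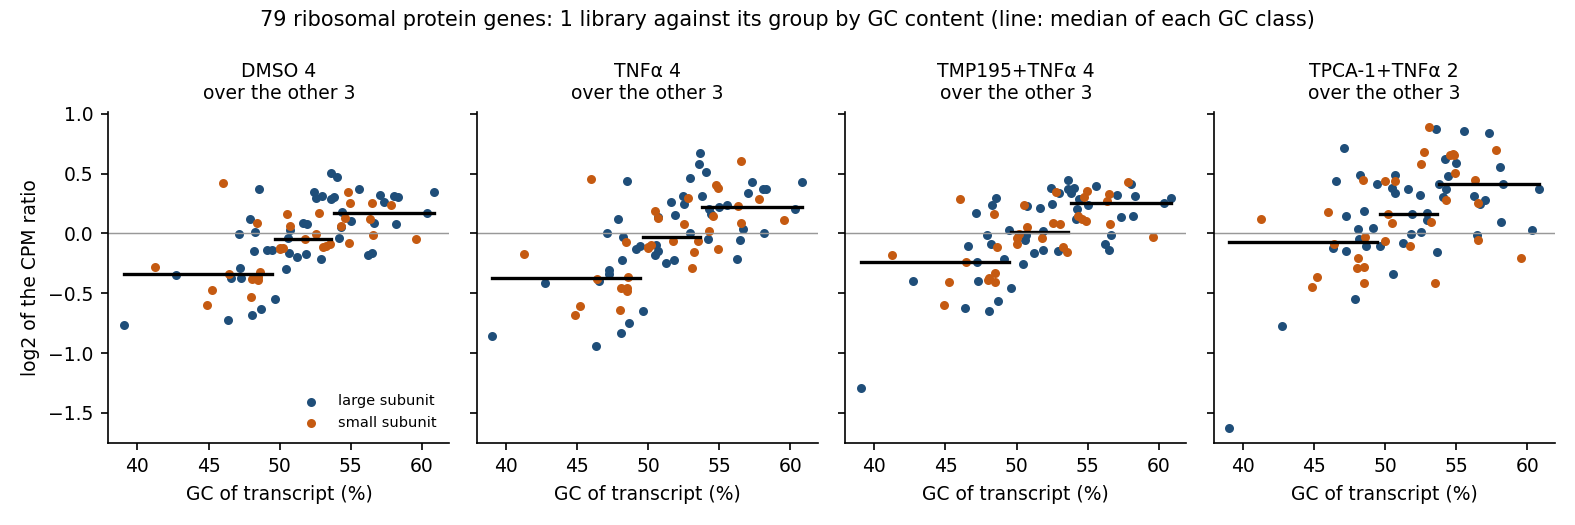
Log2 ratio of 1 library's CPM to the mean of the other 3 of its group (vertical axis) against the GC content of the principal transcript in percent (horizontal axis), for 79 genes, large subunit in blue and small subunit in orange; black lines are medians of the 3 GC classes. In each panel the medians go up from the low to the high class, from -0.34 to 0.17 in DMSO 4 and from -0.07 to 0.41 in TPCA-1+TNFα 2.

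The comparisons with TPCA-1+TNFα also differed by class. Against TNFα the median log2 fold change was 0.05, 0.22 and 0.32 in the classes, with 2, 6 and 7 genes called, where all genes of the same classes had -0.15, 0.08 and 0.22. Without replicate 2 the medians were 0.04, 0.18 and 0.16, with 0, 1 and 0 genes called, and those of all genes -0.10, 0.05 and 0.12. Against DMSO they were 0.05, 0.25 and 0.45, with 5, 8 and 20 called, and -0.11, 0.12 and 0.25 over all genes. Leaving out replicate 2 gave 0.06, 0.17 and 0.31, with 3, 4 and 12 called, and -0.05, 0.08 and 0.17 over all genes. TNFα against DMSO had 0.02, 0.04 and 0.08, and 0.05, 0.03 and 0.03 over all genes. The part of base composition in the calls was not tested.

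Other genes of translation were counted in the same fits, from lists grouped by function. Of 3 ribosomal proteins whose names fall outside the rule, 2 were higher in TPCA-1+TNFα than in DMSO, where 14.8% of all genes were. These were Fau (0.49 ± 0.15), a small subunit protein fused to a ubiquitin-like one, and Rack1 (0.37 ± 0.12), a scaffold on the small subunit, and without TPCA-1+TNFα 2 the number was 0. Of 20 elongation and other factors known for the same kind of mRNA start, 5 (25%) rose and 0 fell with TPCA-1 against TNFα. Of all genes 9.67% rose and 9.72% fell. Pabpc1 (0.34 ± 0.10), which binds poly(A) tails, was among the 5. Without TPCA-1+TNFα 2, 2 rose (10%, against 7.20% of all genes). With TNFα against DMSO 2 rose (10%, against 10.9% of all genes), Eef1g (0.29 ± 0.10) and Hnrnpa1 (0.35 ± 0.11), and 0 fell (12.4% of all genes). Between the inhibitors 0 were higher (13.1% of all genes) and 6 lower (30%, against 12.6% of all genes) with TMP195. Without TPCA-1+TNFα 2, 5 were lower (25%, against 10.8% of all genes).

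Ribosome assembly factors were counted in the same way. The list held proteins that process ribosomal RNA or join it to ribosomal proteins, and also genes of polymerase I transcription, such as Polr1e, and Myc. With TNFα against DMSO 22 of 61 rose (36.1%, against 10.9% of all genes) and 0 fell (12.4% of all genes), with a median of 0.35, led by the polymerase I subunit Polr1e (0.73 ± 0.11), Utp4 (0.73 ± 0.13) and Ddx10 (0.65 ± 0.13). In the same comparison 1 of the 84 ribosomal protein genes rose. With TPCA-1 against TNFα 1 assembly factor rose (1.64%, against 9.67% of all genes) and 7 fell (11.5%, against 9.72%), with a median of -0.10, among them Ddx21 (-0.38 ± 0.10), Utp20 (-0.44 ± 0.12) and Rrs1 (-0.52 ± 0.15), where 15 ribosomal protein genes rose and 0 fell. The numbers for assembly factors were 0 higher and 6 lower (9.84%, against 8.09% of all genes) when TPCA-1+TNFα 2 was left out. With TMP195 against TNFα 0 of 61 passed, with 0 for the ribosomal protein genes as well. Against DMSO, TPCA-1+TNFα had 14 of the assembly factors higher (23.0%, against 14.8% of all genes) and 0 lower (15.5% of all genes). Without replicate 2 the numbers were 12 (19.7%, against 12.1% of all genes) and 0.

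Of 31 initiation factors and their regulators 7 rose (22.6%, against 10.9% of all genes) and 0 fell (12.4% of all genes) with TNFα against DMSO. Eif6 (1.10 ± 0.23), which keeps the subunits apart, led them. With TPCA-1 against TNFα 1 rose (3.23%, against 9.67% of all genes), the S6 kinase Rps6kb2 (0.58 ± 0.18). In the same comparison 2 fell (6.45%, against 9.72% of all genes), Eif4g2 (-0.75 ± 0.15) and the S6 kinase Rps6kb1 (-0.56 ± 0.19). Without TPCA-1+TNFα 2 the numbers were 1 and 1 (3.23% each, against 7.20% and 8.09% of all genes). With TMP195 against TNFα 0 rose and 2 fell. Of 77 genes of the mitochondrial ribosome that were tested, 10 rose (13.0%, against 10.9% of all genes) and 0 fell with TNFα against DMSO. In this list 2 rose (2.6%) and 5 fell (6.49%) with TPCA-1 against TNFα, against 9.67% and 9.72% of all genes. In TPCA-1+TNFα 20 (26.0%) were higher and 2 (2.6%) lower than in DMSO, against 14.8% and 15.5% of all genes. When TPCA-1+TNFα 2 was left out, 1 rose (1.30%, against 7.20% of all genes) and 4 fell (5.19%, against 8.09%) with TPCA-1 against TNFα. Against DMSO 17 were then higher (22.1%, against 12.1% of all genes) and 2 lower (2.6%, against 14.2%).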

How the data were processed

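Whole-cell RNA of 16 macrophage libraries was sequenced, and the deposited tables hold raw read counts per gene that the authors made with STAR 2.6.1d on mm10 (GRCm38), per the submitters' processing notes. The annotation release is not given in the sources used here. Names come from GENCODE M21, which matched 54809 of 54838 identifiers. Counts were taken from the column for the strand that held most reads. Reads mapping to several places or to overlapping genes are not in it, which lowers genes with copies.

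Differences were tested with edgeR 4.0.16 (R 4.3.3): TMM scaling, filterByExpr (12612 genes, all 84 members among them), group means over 16 libraries, quasi-likelihood F tests, 2-sided, and Benjamini-Hochberg adjustment over all genes with a threshold of 0.05. A standard error is the log2 fold change divided by the root of F. Tables and figures were made with pandas 2.3.3, NumPy 2.4.6 and matplotlib 3.10.9. The procedure was tested on simulated data. Depth was 7489066 to 31596572 counts, at which 3 counts equal 0.0949 to 0.401 CPM. Shares, ratios, medians and motif counts are descriptions without a test.

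Alternatives were another scaling, scaling without the members, no filter on low counts, counts of both strands, DESeq2 1.42.0, each library left out, and the replicate number as a block. The block without TPCA-1+TNFα 2 and the GC classes were chosen after seeing the data. Deviations of same-numbered libraries from their group means correlated in every pair for TNFα against DMSO (0.33 to 0.68), TMP195+TNFα against TNFα (0.37 to 0.67) and TMP195+TNFα against DMSO (0.27 to 0.65), so there the number was taken as a pairing found in the data.

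Named genes were those past the threshold (up to 12 a comparison), the 3 highest and 3 lowest estimates per subunit, the 5 highest and 5 lowest levels per length, stalk genes, paralog pairs and genes of known roles. Members and lists were chosen with earlier results of these data known. Values of some genes past the threshold are not reported here.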

Additional observations from a re-analysis of the deposited data

Results flagged for a closer look

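In 10 of 240 sets of 4 libraries (1 gene in 1 group, for genes named in the text), 1 library stood apart, with a gap to its nearest neighbour of more of the group's range than Dixon's 95% critical value allows. Chance gives this in about 1 in 20 sets. Of the 10, 5 were in TNFα 4: Rpl22 (0.897 of the range), Rpl23 (0.853), Rpl7 (0.974) and Rps3a1 (0.858) were lowest there, and Rpl27a (0.908) was highest. In TPCA-1+TNFα 2 Rpl41 (0.935) and Rps28 (0.950) were highest. In DMSO 4 Rps4x (0.943) was lowest, in TNFα 3 Rps3 (0.843) was highest, and in TMP195+TNFα 2 Rps19 (0.953) was highest.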

How the results depend on the processing

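None of the 39 calls that were followed through the alternatives, those with the smallest adjusted p in each comparison, reversed. Called ribosomal protein genes for TPCA-1+TNFα against TNFα were 15, and 8 with no filter on low counts. These 8 were higher and are 9.52% of the 84, where 4.01% of all genes rose without the filter. With each library left out in turn they numbered 1 to 21 for TPCA-1+TNFα against TNFα, 19 to 36 between the inhibitors, 1 to 4 for TMP195+TNFα against DMSO and 16 to 36 for TPCA-1+TNFα against DMSO. Without the filter 1 gene was called for TMP195+TNFα against DMSO. Leaving the mitochondrially encoded genes out of the total raised the summed share to 4.69% in DMSO, 4.58% in TNFα and 4.45% in TMP195+TNFα. In TPCA-1+TNFα it was then 5.45% ± 0.497 (SD), or 5.22% ± 0.209 without replicate 2.

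With the replicate block 3 genes were called for TNFα against DMSO and 29 for TPCA-1+TNFα against TNFα. With the block and without TPCA-1+TNFα 2, 12 were called for TNFα against DMSO, 4 for TMP195+TNFα against TNFα, 23 for TPCA-1+TNFα against TNFα, 12 for TMP195+TNFα against DMSO, 46 between the inhibitors and 44 for TPCA-1+TNFα against DMSO. With all libraries the block gave 45 and 44 in the last 2. For TPCA-1+TNFα against TNFα all blocked calls were higher, 34.5% of the 84 with all libraries (15.9% of all genes) and 27.4% without TPCA-1+TNFα 2 (14.9%). Between the inhibitors 52.4% and 54.8% were lower, where 18.3% and 18.7% of all genes were, and 1 and 0 genes were higher. Against DMSO 52.4% and 51.2% were higher, where 20.8% of all genes were each time, and 0 and 1 were lower. In the comparisons with TPCA-1+TNFα the deviations correlated in only 3, 2 and 3 of 4 pairs, so there the block is given as an alternative only. Of 16 libraries 15 correlated best with one of their own number.

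Of 39 tested results on named genes, all 39 kept their call under the other scalings, DESeq2, counts of both strands and the block, 38 with the block and without TPCA-1+TNFα 2, 32 without the filter and 28 without TPCA-1+TNFα 2. Of the 13 that TNFα libraries enter, 2, 3 and 5 kept it without TNFα 1, 2 and 3. The large minus small subunit medians ranged from -0.05 to 0.07 over 93 alternative values, on both sides of 0; for TPCA-1+TNFα against DMSO they went from -0.03 to 0.04 without TPCA-1+TNFα 2. At this depth Rpl39l and the genes lying under others rest on few counts.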
